A study of Homo sapiens with 2 samples.

Results

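Protein arginine methyltransferases and WDR77, the partner of PRMT5, were followed in A549 cells that overexpress MYOCD and in wild-type A549 cells. The genes were PRMT1, PRMT2, PRMT3, CARM1 (also called PRMT4), PRMT5, PRMT6, PRMT7, PRMT8, PRMT9 and WDR77 (also called MEP50), chosen by symbol. All 10 were in the table, on 1 row each, among 56255 gene symbols. A549 is a widely used human lung adenocarcinoma cell line. The product of MYOCD, myocardin, binds SRF and switches on smooth and cardiac muscle genes. The MYOCD group is A549 cells with MYOCD overexpression and the WT group is untreated A549 cells. The WT values are headed A549_rtt_RPKM, which the key of the deposited values gives as WT. Each group is 1 library of total RNA from cells grown in DMEM with serum. The vector, the time after its delivery, an empty-vector control and whether the MYOCD cells are 1 clone are not stated in the labels. With 1 library in each group, no value below has a replicate error, no test was run and no difference has a replicate check.

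Arginine methyltransferases move methyl groups from S-adenosylmethionine to arginine side chains of histones, splicing factors and many RNA-binding proteins. Type I enzymes (PRMT1, PRMT2, PRMT3, CARM1, PRMT6 and PRMT8) make asymmetric dimethylarginine, type II enzymes (PRMT5 and PRMT9) make symmetric dimethylarginine, and PRMT7, the type III enzyme, makes monomethylarginine. PRMT5 works in a complex with WDR77, a WD-repeat protein that helps present substrates, and this complex methylates Sm proteins of the spliceosome. PRMT5 and PRMT1 are widely expressed and PRMT8 is largely restricted to brain.

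Short stretches of the PRMT5 promoter are shown because PRMT5 had the largest difference of the family between the libraries. The 250 bases upstream of each RefSeq start (GRCh38.p14) were searched on both strands for CCAAT, the letters bound by the factor NF-Y. All 10 genes had such a window, and PRMT7, PRMT8 and CARM1 had a second. Some GENCODE transcripts of PRMT5 start further upstream, within its window. At least 1 copy was in a window of 3 of the 10 genes, and PRMT5 held 3 copies. Of 35116 promoter windows of the same length, 32.0% held at least 1 copy and 2.93% held at least 3. The mark of 3 equals the count in PRMT5, which was picked for its difference, so the 2.93% is a description and no test. Each line gives a PRMT5 copy with 10 bases on either side, 5′ to 3′ on the strand of the gene, with the match in capitals (ATTGG is CCAAT read from the other strand).
PRMT5, chr14:22929545-22929569, minus strand, 183 bases before the start: agaccctgagATTGGtggatccatg
PRMT5, chr14:22929505-22929529, minus strand, 143 bases before the start: cagcccgcggATTGGcaggaaaagc
PRMT5, chr14:22929397-22929421, minus strand, 35 bases before the start: tgactttgtgATTGGctactagtat

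Other motifs were searched in the same windows and counted in the same way, so counts of genes and shares of windows again differ in unit. The CArG box, the site that SRF binds, was in no window of the 10 genes and in 1.16% of all windows. The letters CAGAC, a short element that SMAD proteins can bind, were in a window of 7 of the 10 genes and in 38.0% of all windows, and PRMT5 held 2 copies. The letters GGGCGG, the GC box bound by SP1, were in a window of 8 of the 10 genes and in 42.6% of all windows. PRMT5 and PRMT6 were the genes without it. PRMT8 held GGGCGG, and CARM1 held CAGAC, only in the second window. A match describes the letters of these windows and says nothing of a factor being there.

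The MYOCD transcript stood at 48.6 RPKM (reads per kilobase of gene and of library size, as deposited) in the MYOCD library, against 0.304 RPKM in the WT library, in the direction of the labels. The epithelial keratin genes KRT18 (1134 RPKM in MYOCD and 1647 RPKM in WT) and KRT8 (1059 and 1523 RPKM) were abundant and lower in MYOCD. They make up nearly all of the summed level of 5 epithelial markers, 2234 RPKM in MYOCD and 3209 RPKM in WT. The other epithelial markers were higher in MYOCD or close to WT, with CDH1 at 35.8 RPKM in MYOCD and 35.01 RPKM in WT, KRT19 at 3.24 and 2.94 RPKM, and EPCAM at 2.57 and 0.889 RPKM. The alveolar type II markers summed to 7.88 RPKM in MYOCD and 6.05 RPKM in WT, mostly ABCA3 (6.72 and 5.55 RPKM). NAPSA stood at 1.04 and 0.394 RPKM, the other 3 of 5 were under 1 RPKM in both, and SFTPC was listed at 0 in both. Of 6 fibroblast markers 5 were under 1 RPKM in both libraries and DCN was listed at 0, but COL1A1 stood at 14.3 RPKM in MYOCD and 3.06 RPKM in WT. Blood cell markers summed to 27.0 RPKM in MYOCD and 20.9 RPKM in WT, with CD68 at 25.15 and 18.3 RPKM and CD14 at 1.17 and 2.31 RPKM. The other 3 of 5 were under 1 RPKM in both, PTPRC and CD3E being listed at 0. Endothelial markers summed to 3.64 RPKM in MYOCD and 1.41 RPKM in WT, nearly all of it ESAM (3.497 and 1.403 RPKM), with 3 of 4 under 1 RPKM and VWF and CDH5 listed at 0 in both. Smooth muscle markers summed to 17.5 RPKM in MYOCD and 11.8 RPKM in WT, with TAGLN at 6.93 and 2.34 RPKM ACTA2 at 8.97 and 8.28 RPKM, MYH11 at 1.24 and 0.830 RPKM, and CNN1 at 0.328 and 0.355 RPKM. Neuronal markers summed to 26.1 RPKM in MYOCD and 31.2 RPKM in WT, SNAP25 being higher in MYOCD (17.03 and 8.88 RPKM). The others were lower in MYOCD, with RBFOX3 at 3.49 and 14.2 RPKM, MAP2 at 0.978 and 2.78 RPKM, and SYT1 at 4.63 and 5.33 RPKM. In a bulk sample, fewer cells of a type and less RNA per cell cannot be told apart, and whether cell makeup had a part in the values below was not tested.

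PRMT5 was the gene of this family that differed most between the libraries. Its transcript stood at 262 RPKM in MYOCD cells, against 155 RPKM in WT cells, a difference of 107 RPKM and a ratio of 1.69. PRMT5 (ENSG00000100462) lies on chromosome 14 from 22920511 to 22929585 on the minus strand (GRCh38). The log2 change was 0.75, computed here and throughout as log2 of (MYOCD RPKM + 0.5) over (WT RPKM + 0.5). It lay under the 2-fold size that was set as the mark of a large difference.

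Its partner WDR77 stood at 37.1 RPKM in MYOCD cells and 30.6 RPKM in WT cells, a log2 change of 0.27. PRMT5 RPKM was thus 7.06 times that of WDR77 in MYOCD and 5.07 times in WT. WDR77 lies on chromosome 1 from 111439890 to 111449376 on the minus strand. Its exons overlap those of ATP5F1, an ATP synthase gene on the other strand with 135 RPKM in MYOCD and 126 RPKM in WT, and those of the noncoding gene RP11-552M11.4 on its own strand with 18.3 and 19.9 RPKM. The labels do not say whether counting used strand, so reads of these overlaps cannot be told apart and the WDR77 level is uncertain to that extent. Exons of PRMT1, CARM1, PRMT5 and PRMT7 also overlap those of other genes, with the same limit.

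The neighbours of PRMT5 did not stand higher with it. RBM23, an RNA-binding protein gene that lies 1327 nt downstream on the same strand, had 35.7 RPKM in MYOCD and 47.97 RPKM in WT. The antisense gene PRMT5-AS1, whose exons overlap those of PRMT5, had 1.02 RPKM in MYOCD and 1.29 RPKM in WT. With the use of strand not stated, how reads of this overlap were shared between PRMT5-AS1 and PRMT5 is unknown. The noncoding gene RP11-298I3.1, which starts on the other strand just upstream of PRMT5, had 2.63 RPKM in MYOCD and 2.76 RPKM in WT. The pseudogene PRMT5P1 was listed at 0 in both libraries.

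PRMT9, the other type II enzyme, which methylates the splicing factor SF3B2, was the least abundant member above 1 RPKM. It stood at 2.81 RPKM in MYOCD cells and 2.27 RPKM in WT cells, a log2 change of 0.26. The gene is on chromosome 4 from 147637785 to 147684230 on the minus strand, and its span overlaps that of TMEM184C (16.9 RPKM in MYOCD and 22.4 RPKM in WT) without shared exon sequence.

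**Figure D1:**
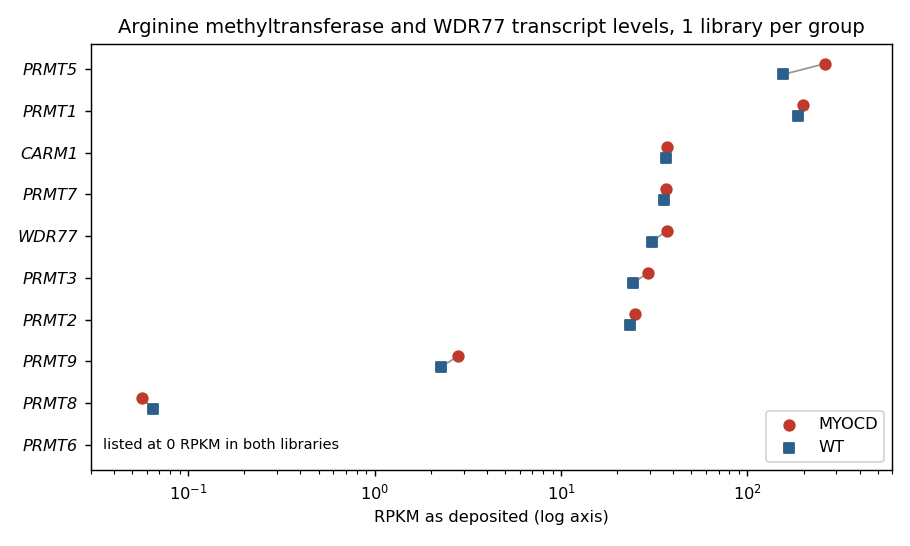
Transcript levels in RPKM (log axis) of the 10 genes, ordered by mean, with the MYOCD library as a red circle and the WT library as a blue square, 1 library each. PRMT5 shows the widest gap (262 and 155 RPKM), PRMT1 and CARM1 lie almost on top of their WT values, and PRMT6 was listed at 0.

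Among the type I enzymes the levels of PRMT1, PRMT2 and CARM1 lay close together in the 2 libraries, and PRMT3 differed more. PRMT1, which makes most of the asymmetric dimethylarginine of mammalian cells, stood at 199 RPKM in MYOCD and 186 RPKM in WT, a ratio of 1.07. CARM1, a coactivator-associated enzyme that methylates histone H3, stood at 37.2 RPKM in MYOCD and 36.5 RPKM in WT, a ratio of 1.02. These were small differences, and that of CARM1 was the smallest in log2 terms among genes above 1 RPKM.

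PRMT2, which carries an SH3 domain, stood at 25.1 RPKM in MYOCD and 23.5 RPKM in WT, a log2 change of 0.09. PRMT3, a zinc finger enzyme that methylates the ribosomal protein RPS2, stood at 29.4 RPKM in MYOCD and 24.2 RPKM in WT, a log2 change of 0.28. PRMT3, WDR77 and PRMT9 thus formed a middle range of log2 changes, between 0.26 and 0.28. PRMT7, the type III enzyme, stood at 36.6 RPKM in MYOCD and 35.8 RPKM in WT, a ratio of 1.02.

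PRMT8 and PRMT6 were the type I genes under 1 RPKM. PRMT8, a membrane-anchored relative of PRMT1, stood at 0.0562 RPKM in MYOCD and 0.0648 RPKM in WT. PRMT6, a nuclear enzyme that methylates histone H3, was listed at exactly 0 in both libraries, as were 3151 (16.0%) of 19695 protein-coding genes. Since the table holds no counts, a listed 0 gives no upper limit on the level and may be a failed estimate, and PRMT6 enters the sums and shares below as 0. Of the other copies, PRMT1P1 stood at 0.191 RPKM in MYOCD and 0.488 RPKM in WT, and CARM1P1 was listed at 0 in both.

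RPKM is per length, so the genes were ordered by level, but the lengths behind the deposited values are not stated. Model lengths in GENCODE lay between 2805 nt (WDR77) and 9458 nt (PRMT7). Orders, sums, shares and ratios between genes are uncertain for that reason. In MYOCD cells PRMT5 was first and PRMT1 second, whereas in WT cells PRMT1 was first and PRMT5 second. The ratio of PRMT5 to PRMT1 was 1.32 in MYOCD and 0.832 in WT. Among 19695 protein-coding genes PRMT5 ranked 295th in MYOCD and 534th in WT, and PRMT1 ranked 385th in MYOCD and 430th in WT. CARM1, PRMT7 and WDR77 followed within a narrow range in MYOCD (36.6 to 37.2 RPKM), then PRMT3 and PRMT2, with PRMT9 well below these. Without replicates, no order among CARM1, PRMT7 and WDR77 can be read from these values.

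The 9 methyltransferase genes summed to 592 RPKM in MYOCD and 464 RPKM in WT. Without PRMT5 the sums were 330 RPKM in MYOCD and 309 RPKM in WT. PRMT5 made up 44.3% of the sum in MYOCD and 33.4% in WT, and PRMT1 33.6% in MYOCD and 40.2% in WT. By type, the type I genes held 49.1% of the sum in MYOCD and 58.3% in WT, the type II genes 44.7% and 33.9%, and PRMT7 6.18% and 7.73%. These are shares of transcript signal and not of enzyme activity.

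**Figure D2:**
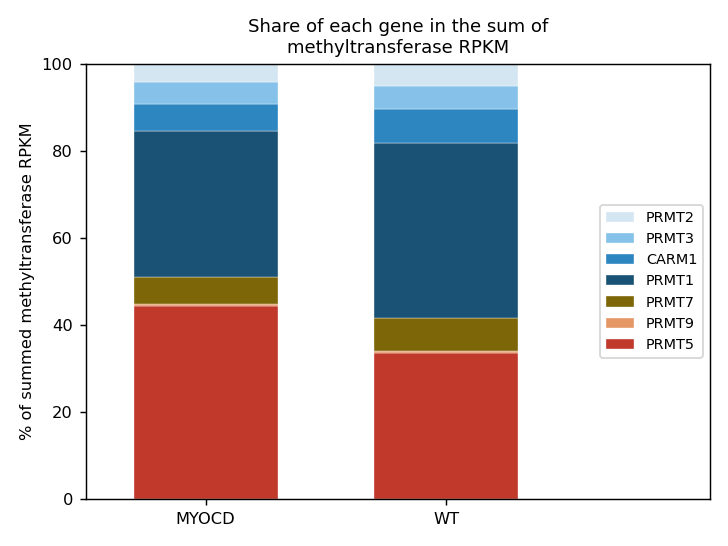
Share (%) of each gene in the summed RPKM of the methyltransferase genes, with the MYOCD library on the left and the WT library on the right. The PRMT5 segment covers 44.3% in MYOCD and 33.4% in WT; PRMT6 (listed at 0) and PRMT8 (under 0.1 RPKM) are not drawn.

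Of the 10 genes, 8 had at least 1 RPKM in at least 1 library, and PRMT6 and PRMT8 did not. None of the 8 was at or beyond 2-fold in either direction. Over all 17350 genes past this filter, 11.8% were at or beyond 2-fold (5.42% higher and 6.35% lower), and among the 12337 protein-coding genes 6.11% were. With 8 genes and these shares, the count of 0 is no result particular to the family. At 1.5-fold, a size added after the values were seen, PRMT5 alone was past the mark, beside 24.8% of all genes. All 8 had log2 changes above 0, as had 49.8% of all genes, and their median log2 change was 0.18, against a median of -0.00 over all genes. Without PRMT5 the other 7 had a median of 0.09, and they ranged between 0.03 and 0.28.

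The change of PRMT5 can be placed among other genes by its size. Of all genes past the filter, 17.8% differed by at least as much in either direction, and of protein-coding genes 11.1% did. Abundant genes differed less often by a large factor, as the plot of change by level shows: of 902 protein-coding genes with a mean of at least 100 RPKM, a level chosen after the values were seen, 1.66% were at or beyond 2-fold. Of these 902 genes 12 stood at least as much higher as PRMT5, itself included, which is 1.33%. A further 16 were lower by at least that size. The mean covers both libraries, so the level mark depends in part on the change. Some of the 12 passed it only through MYOCD, such as SCRIB (706 RPKM in MYOCD and 33.1 RPKM in WT). PRMT5 was placed here for having the largest change of its family, so these shares describe its size and are no test. In either direction, 78.5% of protein-coding genes past the filter differed at least as much as PRMT1, 45.3% as much as WDR77 and 93.1% as much as CARM1.

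**Figure D3:**
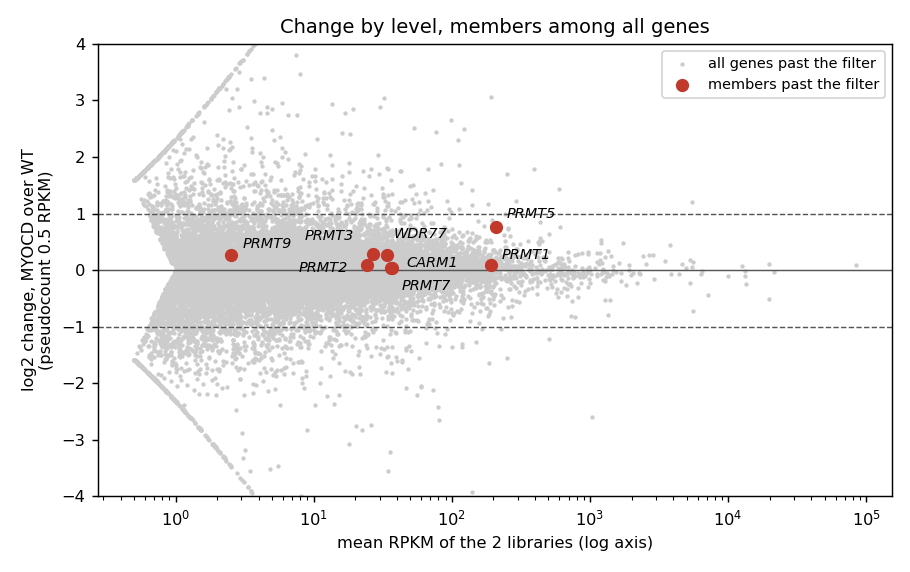
Log2 change (MYOCD over WT, pseudocount of 0.5 RPKM) against the mean RPKM of the 2 libraries (log axis) for all genes past the filter (grey) and the 8 members past it (red), with dashed lines at 2-fold. The members lie above 0 and inside the lines, PRMT5 highest at 0.75; 351 genes beyond a log2 change of 4 in either direction fall outside the axis.

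Related genes were described from 9 lists holding 100 genes, of which 88 had at least 1 RPKM in a library. By the 2-fold rule 1 of the 88 was higher and 0 were lower (1.14%, beside 5.42% and 6.35% of all genes), with a median log2 change of 0.07. In either direction the share was 6.11% among protein-coding genes, and 1.66% among those with a mean of at least 100 RPKM. The share thus falls with level, and the low count is not read as particular to these lists. The adaptors of PRMT5, which bring substrates to the complex, went in different directions. CLNS1A, which encodes the chaperone pICln that brings Sm proteins, stood at 97.5 RPKM in MYOCD and 114 RPKM in WT. RIOK1, whose kinase competes with pICln for PRMT5, stood at 8.48 RPKM in MYOCD and 13.7 RPKM in WT, a log2 change of -0.66. COPRS, which directs PRMT5 to histone H4, stood at 45.9 RPKM in MYOCD and 37.9 RPKM in WT. PRMT5 RPKM was thus 2.69 times that of CLNS1A in MYOCD and 1.36 times in WT.

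The Sm protein and SMN assembly genes, which include known substrates of PRMT5, split into 9 members above 0 and 8 below, with a median log2 change of 0.06 and 0 of 17 at 2-fold or more. SNRPD2 stood at 384 RPKM in MYOCD and 397 RPKM in WT, SNRPB at 286 and 288 RPKM, and SNRPG at 228 and 216 RPKM. SMN1 and SMN2 are near-identical copies, and how reads common to them were counted is not stated in the labels. Of 8 genes of other PRMT5 and PRMT9 substrates 7 passed the filter, with a median of 0.07 and 0 at or beyond 2-fold. Among them the splicing factor gene SRSF1 had 279.5 RPKM in MYOCD and 267 RPKM in WT, and SF3B2 had 96.5 and 81.4 RPKM. SUPT5H, which encodes the elongation factor SPT5, stood at 86.2 RPKM in MYOCD and 79.8 RPKM in WT.

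The substrates of type I enzymes, largely RNA-binding proteins with arginine-glycine repeats, lay above 0 for 23 of 29 genes, beside 49.8% of all genes and 50.5% of protein-coding genes past the filter, with a median log2 change of 0.12 and 0 at or beyond 2-fold. PABPC1, the poly(A)-binding protein methylated by CARM1, stood at 1393 RPKM in MYOCD and 1181 RPKM in WT. RPS2, the substrate of PRMT3, stood at 1261 RPKM in MYOCD and 1108 RPKM in WT, and HNRNPA1 at 717 and 786 RPKM. The widest log2 changes of the list were those of the transcription factor genes RUNX1 (0.86) and FOXO1 (0.68), with 10.65 and 2.01 RPKM in MYOCD, against 5.64 and 1.06 RPKM in WT. The lowest was that of the cold-inducible RNA-binding protein gene CIRBP, with 38.96 RPKM in MYOCD and 57.85 RPKM in WT (-0.56). RPS2 and HNRNPA1 have many processed copies in the genome, so their levels are uncertain.

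Genes that supply S-adenosylmethionine or clear its products lay above 0 for 8 of 15 genes, with a median log2 change of 0.06 and 0 at or beyond 2-fold. MAT2A, the synthetase of S-adenosylmethionine in most tissues, stood at 246 RPKM in MYOCD and 279 RPKM in WT. AHCY, which breaks down the product S-adenosylhomocysteine, stood at 117 and 118 RPKM, and the spermine synthase gene SMS at 114 and 85.2 RPKM. MTAP encodes the phosphorylase of methylthioadenosine, a metabolite that inhibits PRMT5, and is often lost from tumours together with CDKN2A. It stood at 17.1 RPKM in MYOCD cells, against 9.39 RPKM in WT cells, a log2 change of 0.83 and the highest of this list. Its neighbours CDKN2B and CDKN2A were listed at 0 in MYOCD, and at 0 and 0.0950 RPKM in WT. MTAP, CDKN2A and CDKN2B served here as markers of a locus that is deleted in A549. MTAP exons overlap those of a longer gene on the same strand that runs on past CDKN2A (7.79 RPKM in MYOCD and 5.87 RPKM in WT). A gene-level value thus does not say which MTAP exons were read, nor whether these cells make a complete MTAP transcript.

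**Figure D4:**
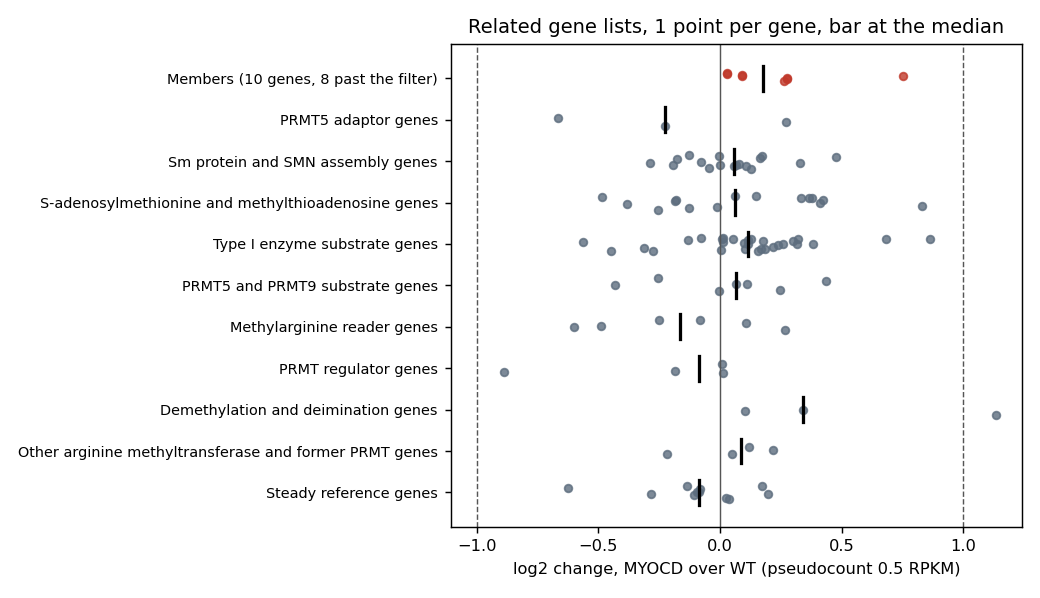
Log2 change (MYOCD over WT, pseudocount of 0.5 RPKM) of each gene past the filter in the related lists (grey), in the steady reference genes and among the members (red, top), with a bar at each median and dashed lines at 2-fold. PADI2 is the point beyond 2-fold, and the median of the members is 0.18.

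Genes whose proteins read arginine methylation had log2 changes of both signs. Methylarginine readers had 6 of 10 members past the filter, a median of -0.17 and 0 at or beyond 2-fold. The Tudor domain genes SND1 and SPIN1 stood at 89.4 and 30.9 RPKM in MYOCD, against 74.3 and 36.9 RPKM in WT, and SMNDC1 at 23.5 RPKM in MYOCD and 24.9 RPKM in WT. TDRD3 and TDRD7 had the lowest log2 changes of the 6, -0.60 and -0.49, with 4.47 and 5.02 RPKM in MYOCD, against 7.03 and 7.25 RPKM in WT. TDRD1 and TDRD9, readers of the germline, were listed at 0 in both libraries.

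Of 6 demethylation and deimination genes 3 passed the filter. These 3 lay above 0, beside 49.8% of all genes, with a median log2 change of 0.34. PADI2, a peptidylarginine deiminase that turns arginine into citrulline, was the 1 related gene at or beyond 2-fold. It stood at 4.48 RPKM in MYOCD cells and 1.77 RPKM in WT cells, a log2 change of 1.14. The other deiminase past the filter, PADI3, stood at 1.75 RPKM in MYOCD and 1.59 RPKM in WT. JMJD6, a hydroxylase also described as an arginine demethylase, stood at 25.9 RPKM in MYOCD and 20.3 RPKM in WT. PADI2 fell short of 2-fold with a pseudocount of 1 RPKM.

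Among 5 regulators of PRMT activity 4 passed the filter, with a median of -0.09 and 0 at or beyond 2-fold. TOB1, an antiproliferative protein of the BTG family, stood at 37.1 RPKM in MYOCD and 69.2 RPKM in WT, a log2 change of -0.89. Its relative BTG1, which binds PRMT1, stood at 22.0 RPKM in MYOCD and 21.7 RPKM in WT, and CNOT7, a deadenylase that binds BTG proteins, at 121 and 137 RPKM. The 4 other arginine methyltransferase genes and genes once named PRMT had a median of 0.08. The mitochondrial enzyme gene NDUFAF7 stood at 21.6 RPKM in MYOCD and 18.5 RPKM in WT, METTL23 at 39.1 and 37.8 RPKM, and FBXO11, a ubiquitin ligase gene once named PRMT9, at 40.6 and 47.3 RPKM. For comparison, 11 genes usually taken as steady gave a median log2 change of -0.09 and ranged from -0.62 to 0.20. Among them GPI stood at 456 RPKM in MYOCD and 449 RPKM in WT. CHMP2A, the lowest of them, stood at 58.6 RPKM in MYOCD and 90.6 RPKM in WT. SNRPD3 is in this list and also among the Sm protein genes.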

How the data were processed

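One table of RPKM values, deposited by the authors for both libraries, was used, and the columns were assigned by the key at its head. Per the submitters' processing notes, Bowtie 0.12.2 and the builds mm8 (mouse) and GRCh38.p12 were named. Not given in the sources used here are their roles, the counter, the annotation and strandedness. Low values of genes with 1 transcript and at least 2000 nt were compared with multiples of many step sizes. In each library the step with the largest share of values near whole numbers was kept. With it, 31.6% in MYOCD and 30.3% in WT lay within 0.1 of a whole number. Chance gives 20% for 1 fixed step and can give more for the best of many. Most values lay off whole numbers, so whole reads were not recovered, the depth is unknown, and no counting interval or count test was computed.

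From the deposited values, log2((MYOCD + 0.5)/(WT + 0.5)) was computed in Python 3.11.15 with pandas 2.3.3. Genes with at least 1 RPKM in at least 1 library were counted, and 2-fold was a rule of size, not a test. The pseudocount understates changes of low genes. A symbol on several rows used the row with the highest mean. Positions and model lengths came from GENCODE release 29 (GRCh38), which held 57375 of 57979 identifiers, and promoter windows from RefSeq; the promoter sequence of another member is not reported here. The computation was tested on simulated data. Named genes were the 10 members, MYOCD, MTAP, and from each list up to 6 genes past 2-fold, filled up to 3 by abundance. Markers, TDRD1, TDRD3, TDRD7, TDRD9, RUNX1, FOXO1, CIRBP, SMN1, SMN2, CDKN2A, CDKN2B, CHMP2A, SNRPD3 and neighbouring genes were named after their values were seen. The members and lists were chosen with earlier results of these data known. Neighbours were genes within 10 kb. Alternatives were other pseudocounts, filters and scalings, summed rows and protein-coding genes alone.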

Additional observations from a re-analysis of the deposited data

How the results depend on the processing

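The count of members at or beyond 2-fold was 0 under every planned pseudocount, filter and scaling and with summed rows, and 1 (PRMT5) at the added size of 1.5-fold. The log2 change of PRMT5 lay between 0.75 and 0.84, and the median of the members between 0.09 (no filter) and 0.26 (steady reference genes set to 0, a shift of 0.09). At the level of PRMT5 a pseudocount changes little, a scaling moves all genes alike, and PRMT5 is on 1 row. Its narrow range thus says nothing of how well the difference would repeat. Of 60 member values under other settings 1 changed sign, that of PRMT8 under the steady-gene scaling. For the demethylation and deimination genes, the count at or beyond 2-fold was 0 instead of 1 with a pseudocount of 1 RPKM and with at least 5 RPKM, where PADI2 no longer passed the filter, and the median was 0.0521 without a filter, where 3 more genes of low level enter. The share of all genes at or beyond 2-fold was 4.74% without a filter, which adds genes at or near 0, and 6.11% among protein-coding genes. With no replicate SD and no counts, values within 0.1 on the log2 scale were taken as unmoved. No paired analysis was possible because each group has 1 library, and for the same reason no library could be left out. The depth is unknown, so the precision of low values such as those of PRMT8 and PRMT9 could not be given.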
